A study of Cicer arietinum with 5 samples.

Results

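In seeds of the small-seeded chickpea cultivar Himchana 1, 345767 asymmetric cytosines were listed as methylated in every library of mid-maturation (S5) and in no library of late-embryogenesis (S3). They were selected on the listing itself. A cytosine was kept when all 3 S5 libraries listed it as a methylcytosine, when neither of the 2 S3 libraries did, and when at least 2 other cytosines within 50 bp on the same strand were listed in all 5 libraries, so that reads had reached the place at both stages. A cytosine was taken as asymmetric when no library listed a cytosine on the opposite strand at the position that pairs it in a CG or a CHG site (H is A, C or T). The cytosines listed only at S5 were 2.18% of the 15890006 asymmetric cytosines in such covered places. The libraries together listed 25417348 asymmetric cytosines and 40604360 cytosines in all. Because the listing chose these cytosines, their number, their S5 level and their absence at S3 are descriptions and carry no test.

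Whole genome bisulphite sequencing was applied to genomic DNA of seeds harvested from field-grown plants, with 3 replicates at S5 and 2 replicates at S3. Bisulphite turns unmethylated cytosine into uracil, which is read as T, whereas a methylated cytosine is still read as C. The level of a cytosine is the percent of its reads with C, and the median coverage of a listed cytosine was 12 to 14 reads in the 5 libraries, which listed between 24562750 and 27777737 lines each. The seeds were not divided by tissue, and the study states that chickpea endosperm is fully resorbed before S5. A change in the mix of seed tissues and a change of level within a cell type therefore cannot be told apart.

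Plant DNA is methylated in CG, CHG and CHH contexts by different enzymes. MET1 copies CG methylation onto the new strand after replication, and CMT3 maintains CHG methylation together with histone H3 lysine 9 methylation. Asymmetric (CHH) sites have no partner cytosine on the other strand to copy from, so their methylation has to be set anew after each replication. In Arabidopsis this is done by DRM2, which is guided by small RNAs in the RNA-directed DNA methylation pathway, and by CMT2, which acts in heterochromatin. Gain of CHH methylation while seeds mature, mostly in transposons, is known from Arabidopsis and soybean.

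The cytosines listed only at S5 were methylated at low to intermediate level. Their mean level was 33.0%, 32.6% and 35.2% in S5 replicates 1, 2 and 3 (33.6% ± 1.44, SD, n = 3). Asymmetric cytosines listed in all 5 libraries and with the same number of neighbours required (4644414 cytosines, the comparison cytosines below) averaged 52.4% ± 1.51 at S5 (SD, n = 3) and 47.7% ± 0.628 at S3 (SD, n = 2). Each S5 library thus gave the cytosines listed only at S5 a lower level than any of the 5 libraries gave the comparison cytosines. The latter had to be called in all 5 libraries. Covered asymmetric cytosines listed in both S3 and no S5 library averaged 27.8% ± 0.455 at S3 (SD, n = 2). A low level was thus not particular to the cytosines listed only at S5. The median over cytosines of the mean S5 level was 31.1%, against 50.9% for the comparison cytosines. Of the cytosines listed only at S5, 17.2% had a mean S5 level under 20%, 53.6% lay from 20 to 40%, 23.4% from 40 to 60%, and 4.96% from 60 to 80%. Only 2960 of them (0.856%) reached 80% or more, whereas 12.2% of the comparison cytosines did.

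**Figure D1:**
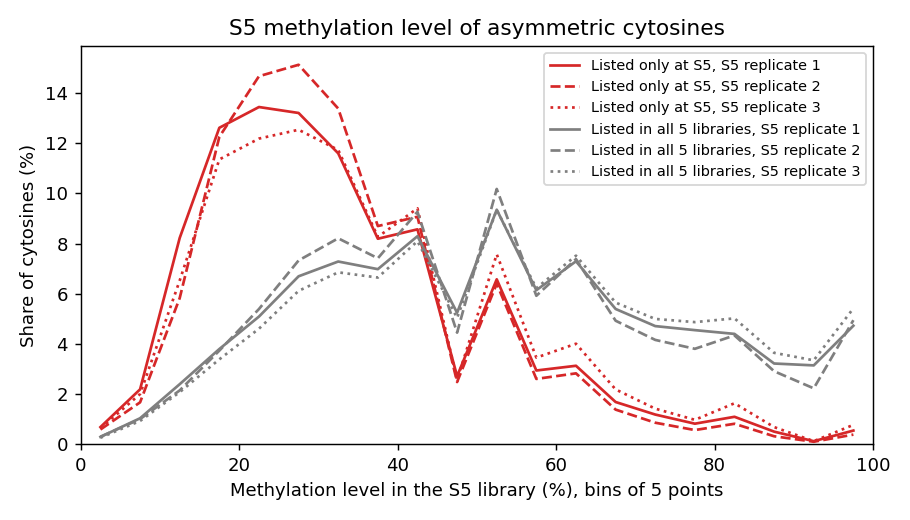
Share of asymmetric cytosines (y axis, percent) in bins of 5 points of methylation level (x axis, percent) in each S5 library, for cytosines listed only at S5 (red) and for comparison cytosines listed in all 5 libraries (gray); line styles mark the 3 S5 replicates. The red lines peak between 20% and 30%, and the gray lines spread over the whole range.

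Levels in the S5 replicates correlated less across these cytosines than across the comparison cytosines. Across cytosines, levels in pairs of S5 replicates correlated with r between 0.591 and 0.675 for those listed only at S5 (345767 cytosines), against 0.754 to 0.793 for the comparison cytosines. These cytosines lie near each other and share reads, so r is a description. It also depends on the spread of levels, which was narrower in the set. In S5 replicate 1 the quartiles were 20% and 42.9%, against 33.3% and 69.2% for the comparison cytosines. The range over the 3 S5 libraries at a cytosine listed only at S5 had a median of 14.4 percentage points. That range was not taken for the comparison cytosines, so the reproducibility of single levels was not compared. Median coverage at these cytosines was 16, 14 and 14 reads in S5 replicates 1 to 3, and 18, 14 and 18 reads at the comparison cytosines. With a low level and moderate coverage, many stood at the smallest number of methylated reads with which any cytosine of that coverage was listed, which was 3 reads at a coverage of 5 to 20 and 4 reads at a coverage of 30 or 40. In S5 replicates 1 to 3, 30.1%, 39.0% and 32.02% of them stood at that limit, against 5.41%, 12.9% and 5.73% of the comparison cytosines. At the limit in all 3 S5 libraries were 5.90% of the cytosines listed only at S5 and 0.329% of the comparison cytosines.

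Absence from the S3 lists does not mean a level of 0, since a cytosine goes unlisted when its methylated reads stay under the limit or its coverage is too low. At the mean coverage of the same-strand neighbours, the highest level that would have gone unlisted at S3 had a median of 15.4% in replicate 1 and 14.3% in replicate 2. This bound concerns the reads sampled: a cytosine methylated in a larger share of the DNA copies can also go unlisted. The mean S5 level exceeded that bound in both S3 libraries for 96.0% of the cytosines, and every single S5 level exceeded it for 78.8%. At the same coverage and call limit, any listed cytosine exceeds the bound. The rule thus fixed part of both shares, which are descriptions only. For 95492 cytosines (27.6%), every S5 level was at least 10 percentage points above the bound. These bounds rest on the neighbours' coverage, because the coverage of an unlisted cytosine itself is not in the lists.

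Coverage moved with the selection. The same-strand neighbours of the cytosines listed only at S5 had a median coverage of 15.75, 14.25 and 14.5 reads in S5 replicates 1 to 3, against 13 and 14.1 reads in S3 replicates 1 and 2. Around the comparison cytosines the medians were 18.5, 13.7 and 18 reads at S5, and 18.5 and 19 reads at S3. The median S5 to S3 ratio of local coverage was 1.07 around cytosines listed only at S5 and 0.899 around comparison cytosines. It was 0.789 around the mirror set, the 177531 asymmetric cytosines listed in both S3 and no S5 library, which had to be present in 2 libraries and not in 3.

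The order of both sets depended on local coverage, in a split chosen after seeing the data. In places where every S5 library had more reads than every S3 library, 7.61% of the asymmetric cytosines were listed only at S5 and 0.262% only at S3. Where the libraries of the stages overlapped in coverage, the shares were 2.17% and 0.896%. Where every S3 library had at least the coverage of every S5 library, 0.878% (22591 cytosines) were listed only at S5 and 2.42% only at S3. With a floor of 20 or more reads on average in all 5 libraries, 2.20% were listed only at S5 and 0.647% only at S3. Such a floor sets a minimum and does not make the coverage of the stages equal. Applied to 2 against 2 libraries, by leaving out S5 replicate 1, 2 or 3, the rule gave 613844, 909185 and 693018 cytosines listed only at S5, against 418845, 315074 and 433121 listed only at S3. The S5 set was thus 1.47, 2.89 and 1.60 times the S3 set at equal library number, and the highest ratio was reached without S5 replicate 2, which had the lowest mean coverage (15.6 reads). Without S3 replicate 1 or 2, so that absence from 1 library sufficed, 896788 or 986923 cytosines were listed only at S5.

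**Figure D2:**
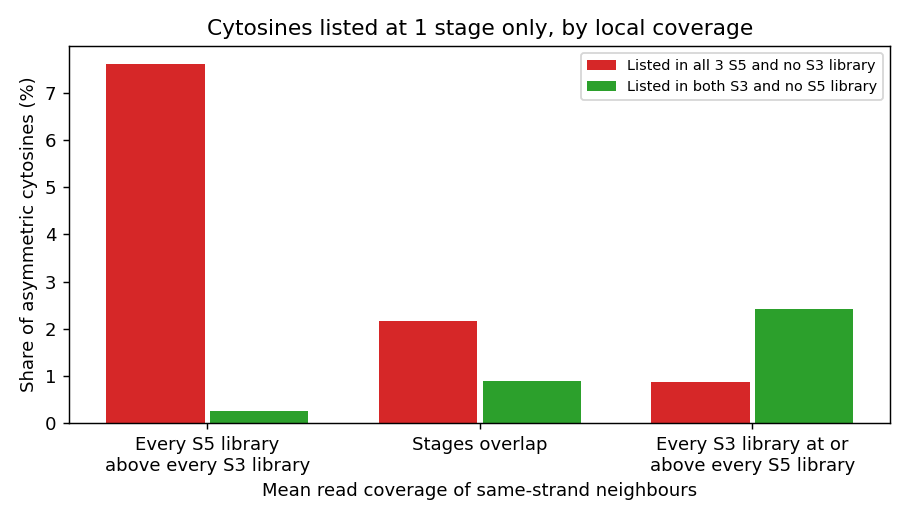
Share of asymmetric cytosines in covered places (y axis, percent) that were listed in all 3 S5 and no S3 library (red) or in both S3 and no S5 library (green), in 3 classes of local coverage, the mean read coverage of same-strand neighbours (x axis). The red bar falls to 0.878% and the green bar reaches 2.42% where every S3 library was covered at least as deeply as every S5 library.

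Level and coverage differed with the number of neighbours. Cytosines listed only at S5 with exactly 2 neighbours, just inside the rule, numbered 70746. They had mean levels of 38.1%, 35.1% and 41.3% in S5 replicates 1 to 3, at a median coverage of 13, 14 and 11 reads. The 71195 with exactly 1 neighbour, just outside it, had 43.3%, 38.3% and 47.1%, at 11, 14 and 9 reads. With no neighbour there were 143224, at 57.4%, 49.3% and 61.3% and 8, 12 and 7 reads. These were 2.70%, 2.90% and 2.03% of the asymmetric cytosines with that many neighbours, so the share was not graded. The level was higher in every S5 library where fewer neighbours were listed, and coverage was lower or the same. At lower coverage, the smallest number of methylated reads that was listed is a higher level. The part of coverage in these levels was not tested.

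Under the rule with all 5 libraries, most cytosines listed only at S5 stood alone, and the rest formed short clusters. Successive ones on a strand with 50 bp or less between them formed 273218 clusters, of which 225798 held a single cytosine (65.3% of all cytosines listed only at S5). Pairs took 18.9% of them, clusters of 3 to 4 took 11.5%, clusters of 5 to 9 took 4.002%, and the 67 clusters of 10 or more took 0.220%. The largest cluster held 17, and the longest spanned 226 bp. Another cytosine of the set stood within 50 bp on the same strand for 34.7% and within 10 bp for 18.1%, whereas 10.3% had one within 50 bp on the opposite strand. The first of these shares was higher whichever library was left out. It was 50.2% without S3 replicate 1 and 53.3% without S3 replicate 2. Without S5 replicates 1, 2 and 3 it was 42.1%, 44.6% and 44.6%. Leaving out a library also made the set larger.

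The spacing was strongly strand-bound. Of the covered asymmetric cytosines directly next to a cytosine listed only at S5 on the same strand, 22.8% were listed only at S5 themselves. The share was 13.6% at 6 to 10 bp, 6.11% at 21 to 50 bp and 2.17% beyond 1000 bp (up to 2000 bp), where it met the 2.18% of all covered asymmetric cytosines. On the opposite strand the share was 4.29% at 1 bp, 3.79% at 6 to 10 bp, 3.22% at 21 to 50 bp and 2.15% beyond 1000 bp. Cytosines close together on a strand are read by the same sequencing reads, while those of the opposite strand are read by others. Strand-wise coverage and methylation therefore cannot be told apart in the same-strand spacing.

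**Figure D3:**
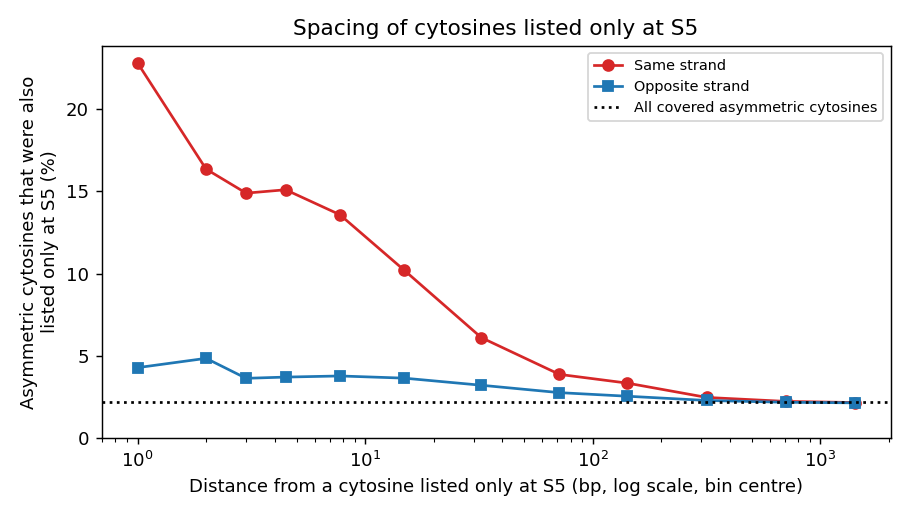
Share of covered asymmetric cytosines that were themselves listed only at S5 (y axis, percent) by their distance from a cytosine listed only at S5 (x axis, bp, log scale), on the same strand (red) and the opposite strand (blue); the dotted line is the 2.18% of all covered asymmetric cytosines. The same-strand share falls from 22.8% at 1 bp to the dotted line beyond 500 bp, and the opposite-strand share starts at 4.29%.

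Clustered cytosines were also the more methylated ones. Of the cytosines with a mean S5 level under 20%, 21.7% had another within 50 bp, and the share was 32.3%, 44.5%, 54.9% and 58.9% in the level classes of 20 to 40%, 40 to 60%, 60 to 80% and 80% or more. By cluster size, the mean S5 level was 31.4% ± 1.01 for single cytosines, 35.4% ± 2.02 in pairs, 39.7% ± 3.03 in clusters of 3 to 4 and 42.4% ± 3.68 in clusters of 5 or more (SD over 3 libraries). Local coverage went the same way: its median S5 to S3 ratio was 1.02 for single cytosines and 1.13, 1.23 and 1.32 in the larger classes. Its part in the level and in the clustering was not tested. Among the 22591 cytosines whose places were covered at least as well in every S3 as in every S5 library, 16.1% had another of them within 50 bp and the mean S5 level was 29.98%.

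Cytosines listed only at S5 more often had another listed cytosine next to them. Cytosines that no library listed are not counted here, so the shares do not give the frequency of runs in the sequence. A listed cytosine stood next in the 3' direction for 10.02% of the cytosines listed only at S5, against 4.23% of the comparison cytosines and 6.98% of those listed only at S3. Those followed by 2 listed cytosines, which are CHH beyond doubt (CCC), numbered 4326 (1.25%, against 0.367% of the comparison cytosines). Their mean S5 level of 33.7% ± 1.71 differed from that of the whole set by less than the spread between replicates. Within the set, those with and without such a next cytosine had 33.5% ± 1.47 and 33.6% ± 1.43 at S5 (SD, n = 3), which differed by less than the spread between replicates. Among comparison cytosines the levels were 48.2% ± 1.77 and 52.6% ± 1.503. The strands were even, with 49.96% of the cytosines listed only at S5 on the forward strand.

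All 8 chromosomes carried these cytosines at similar shares. Of the covered asymmetric cytosines on Ca1 to Ca7, 2.29% to 2.37% were listed only at S5, with 2.74% on Ca8, the chromosome with the fewest covered asymmetric cytosines, and 1.95% on unplaced scaffolds and contigs. The scaffolds and contigs held 37.0% of the set, at a mean S5 level of 29.95%, whereas the mean on the chromosomes ran from 35.3% to 37.7%. Clustering was also lower there: 25.7% had another within 50 bp on the same strand, against 39.1% to 47.8% on the chromosomes.

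Along the chromosomes the share was higher where covered asymmetric cytosines were sparse. Over windows of 1 Mb on Ca1 to Ca8, the median share listed only at S5 was 2.98% in the 117 sparsest windows (6158 to 19309 covered asymmetric cytosines), 2.43% in the 117 middle ones and 2.05% in the 116 densest (34294 to 51060). The share listed only at S3 ran the other way, with medians of 0.940%, 1.07% and 1.13%. The median S5 to S3 ratio of local coverage was 1.01, 0.970 and 0.939 in the same windows, so that coverage moved with the share, and its part was not tested. Genes and transposons of this genome version were not analysed here.

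The asymmetric cytosines around the set were also more methylated at S5 than at S3. Same-strand asymmetric cytosines listed in all 5 libraries within 50 bp (558451 cytosines) averaged 51.9%, 49.9% and 53.9% in S5 replicates 1 to 3, against 46.1% and 44.9% in S3 replicates 1 and 2. The S5 libraries all lay above the S3 libraries, and the difference of the stage means was 6.37 percentage points. Around comparison cytosines the same-strand levels were 52.4%, 51.01% and 54.1% at S5 and 48.3% and 47.4% at S3, a difference of 4.66 points. Around the cytosines listed only at S3 the difference was 2.52 points. At S5, the level around the set was within 1 SD of that around comparison cytosines (51.9% ± 1.98 and 52.5% ± 1.56, SD, n = 3). At S3, it was lower by more than either SD (45.5% ± 0.878 and 47.9% ± 0.639, SD, n = 2). The stage contrast is the one the listing used, so these differences were not tested.

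The opposite strand, which is read by other reads, showed a smaller margin. Asymmetric cytosines on it (368468 cytosines) averaged 48.8%, 47.0% and 50.7% at S5 against 43.6% and 42.6% at S3, with no overlap of the stages and a difference of 5.72 points. Around comparison cytosines the difference was 4.97 points, and around cytosines listed only at S3 it was 4.53 points. Of the covered asymmetric cytosines on the opposite strand within 50 bp of the set, 2.92% were listed only at S5 and 0.955% only at S3, against 2.18% and 1.12% of all covered asymmetric cytosines.

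CG methylation around the set was high and did not separate the stages. It averaged 92.7%, 92.3% and 93.1% in S5 replicates 1 to 3, and 92.8% and 92.5% in S3 replicates 1 and 2, so that the stages overlapped and the difference was 0.0838 points. CHG methylation, in contrast, was lower at S5, with 85.9%, 85.1% and 86.7% against 88.4% and 88.0% at S3, a difference of -2.31 points with no overlap. The CHG difference around comparison cytosines was -2.35 points, and around cytosines listed only at S3 it was -3.06 points. Direction thus differed by context around the set, up for asymmetric and down for CHG cytosines, as it did around comparison cytosines.

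**Figure D4:**
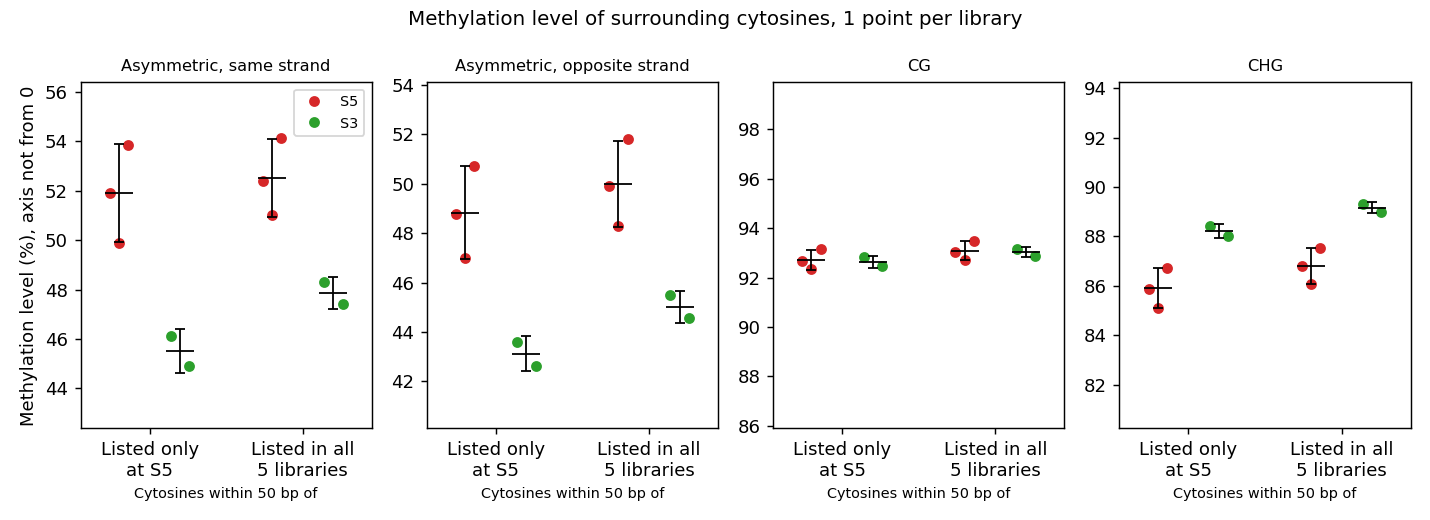
Methylation level (y axes, percent, each spanning 14 points and not starting at 0) of cytosines listed in all 5 libraries within 50 bp of a cytosine listed only at S5 (left in each panel) or of a comparison cytosine (right), in 4 classes; each point is a library (S5 red, S3 green), the bar is the mean and the whiskers are 1 SD. Asymmetric cytosines lie higher at S5 and CHG cytosines lower, around both sets; CG levels overlap.

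Single surroundings followed the same pattern. Among the 177821 cytosines listed only at S5 that had 2 or more same-strand asymmetric neighbours listed in all 5 libraries, the mean level of those neighbours was higher in every S5 than in every S3 library at 62023 (34.9%), against 30.4% of the comparison cytosines. The median difference was 6.28 points, against 4.38 points. For asymmetric neighbours of the opposite strand, 33.4% of the set had every S5 library above every S3 library, against 31.8% of the comparison cytosines. CHG neighbours were lower in every S5 library at 21.1%, which was near the 21.3% of the comparison cytosines. CG neighbours were higher in every S5 library at 11.5% and lower at 10.1%, against 11% and 9.63%. The shares for CG and CHG and for the opposite strand were thus close to the background, and the share for the same strand was the one farthest from it.

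The stage difference of same-strand neighbours was larger where the cytosine itself was more methylated or more clustered. Its median was 4.82 points around cytosines with a mean S5 level under 20%, then 6.61, 8.05 and 8.93 points in the classes of 20 to 40%, 40 to 60% and 60 to 80%, and 3.54 points around the few at 80% or more. It was 5.79 points around single cytosines, 6.96 in pairs, 8.15 in clusters of 3 to 4 and 9.72 in clusters of 5 or more. On the opposite strand the medians by cluster size were 5.18, 6.03, 7.45 and 9.83 points.

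The same values were taken where S3 was covered at least as deeply. Around the 22591 cytosines whose places had at least as many reads in every S3 as in every S5 library, same-strand asymmetric neighbours averaged 49.2%, 48.3% and 50.7% at S5 against 41.2% and 40.7% at S3, a difference of 8.44 points. Around comparison cytosines with such coverage (768091) the difference was 5.73 points. A cytosine unlisted at S3 in spite of deeper S3 reads is chosen for a low S3 level. The part of this selection in the larger difference around the set was not tested. On the opposite strand the differences were 5.79 and 5.15 points, and for CHG they were -1.87 and -2.05 points.

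More cytosines were listed around the set at S5 too. Within 50 bp on the same strand, S5 replicates 1 to 3 listed 5.68, 5.13 and 5.56 asymmetric cytosines on average besides the cytosine itself, against 3.43 and 3.66 in the S3 libraries, a ratio of 1.54 between the stage means. Part of this was fixed by the rule, since other cytosines of the set stay in the S5 numbers. Without them the numbers were 5.06, 4.51 and 4.93 at S5, and the ratio was 1.36. On the opposite strand, again without cytosines of the set, the numbers were 3.96, 3.73 and 3.63 at S5 and 3.001 and 3.22 at S3, a ratio of 1.21. Around comparison cytosines the ratios computed in this way were 1.04 and 1.06. For listed CG and CHG cytosines the ratios were 1.02 and 1.01 around the set, against 0.984 and 0.976 around comparison cytosines.

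CG and CHG levels were not used by the rule, although listed CG and CHG cytosines counted as neighbours in it, and were compared between the set and the comparison cytosines within each library. Both sides shared most of their sites, since 79.3% of the CG and 85.8% of the CHG cytosines around the set also lay within 50 bp of a comparison cytosine. CG cytosines around the set averaged 92.7%, against 93.1% around comparison cytosines, and were lower in 5 of 5 libraries, with differences of -0.339 to -0.415 points (mean -0.37 ± 0.0305, SD, n = 5). CHG cytosines averaged 86.8% against 87.7% and were lower in 5 of 5 libraries (mean difference -0.916 ± 0.0789 points, SD, n = 5). The two-sided exact sign-flip permutation test gave p = 0.062 for either context, also after Benjamini-Hochberg adjustment over the pair of tests. This is the smallest p that 5 libraries allow, so the design cannot pass 0.05. Both differences were larger than their spread between libraries, and both were under 1 percentage point. The same CG and CHG sites were read in every library. That spread, and the agreement of the 5 libraries, therefore show how repeatable the reading of these sites was. They do not measure how sites vary. The same libraries also chose the set and the comparison cytosines. Both differences changed with the libraries used. They depended on S5 replicate 2: with the rule applied without it, the CG difference was -0.107 and the CHG difference -0.194 points. Without S3 replicate 1 or 2, the CG difference was -0.196 or -0.194 and the CHG difference -0.367 or -0.419 points.

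The 3 largest clusters on the chromosomes differed widely in level and coverage. The first lay on the reverse strand of Ca2 from 34354552 to 34354689 (kabuli genome version 1) and held 16 cytosines listed only at S5 in 138 bp. They averaged 25.9%, 19.6% and 33.2% in S5 replicates 1 to 3, with single levels from 10.7% to 57.1% and 28.9, 37.1 and 24.3 reads on average. Coverage differed along the cluster. Among the 9 of the 16 that lie in its first 51 bp, the 3 neighbours listed in all 5 libraries had 22.3, 36.3 and 18.7 reads at S5 and 16.7 and 24.3 reads at S3. The other 10 neighbours, around the remaining 7, had 51.3, 44.1 and 45.5 reads at S5 and 51 and 48.1 reads at S3. Its 7 same-strand asymmetric cytosines listed throughout had 25.6%, 23.7% and 28.8% at S5 and 18.7% and 15.01% at S3. Its 10 CHG cytosines had 71.3%, 77.3% and 77.8% at S5 against 92.7% and 93.4% at S3, with no overlap of the stages. Besides the 16, which the rule placed at S5, 13, 15 and 12 same-strand asymmetric cytosines within 50 bp of the cluster were listed at S5, against 11 and 7 at S3.

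**Figure D5:**
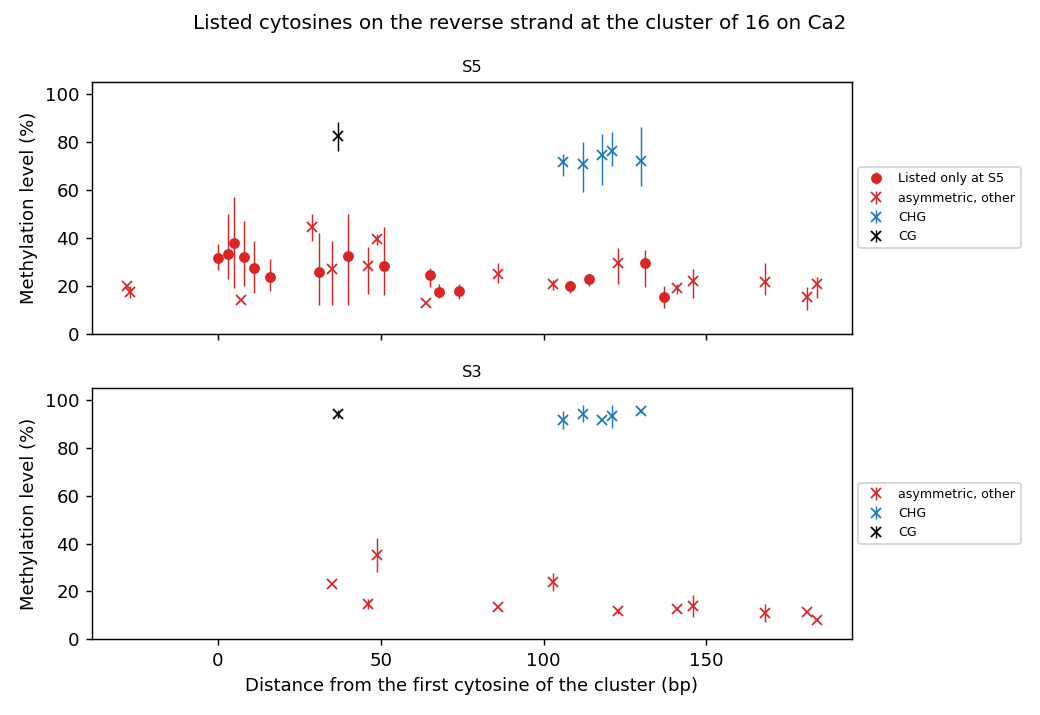
Methylation level (y axis, percent) of listed cytosines on the reverse strand at the largest chromosomal cluster, on Ca2, by distance from its first cytosine (x axis, bp), at S5 (top, mean of up to 3 libraries) and S3 (bottom, mean of up to 2); bars span the lowest to the highest library, and a cytosine is drawn where at least 1 library of the stage lists it. The 16 cytosines listed only at S5 (filled circles) have mean levels under 40% and no counterpart at S3, and the CHG cytosines (blue) lie lower at S5.

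The second, on the forward strand of Ca1 from 47963240 to 47963330, held 14 cytosines at 64.1%, 70.9% and 75%. Its coverage was low, with 6.57, 14.1 and 5.79 reads at the cytosines and 6.33 and 6.5 reads at their neighbours in the S3 libraries. The 3 same-strand asymmetric cytosines listed throughout had 65.6%, 73.1% and 88.9% at S5 and 57.6% and 52.4% at S3. The third, on the reverse strand of Ca1 from 78889 to 78991, held 14 cytosines at 44.5%, 35.9% and 49.7%. Besides the 14, 5, 10 and 5 same-strand asymmetric cytosines near it were listed at S5, against 0 in both S3 libraries, while its 4 CG cytosines listed throughout stood at 96.3%, 97.3% and 96.9% at S5 and 100% in both S3 libraries. Its neighbours had 12.2, 25.8 and 9.6 reads at S5 and 5.6 and 13.4 reads at S3.

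Typical clusters were those of 5 or more cytosines whose mean S5 level was closest to the median of 41.9% over the 1989 such clusters on the chromosomes. One on the forward strand of Ca7, from 38717375 to 38717444, held 5 cytosines at 46.7%, 36.7% and 42.2%, with 8.5, 10.8 and 7.5 reads at the neighbours at S5 and 8.5 and 10 reads at S3. On its opposite strand, the pair of asymmetric cytosines listed throughout had 44.3%, 48.8% and 40% at S5 and 30.4% and 30% at S3. One on the forward strand of Ca1, from 11245496 to 11245608, held 9 cytosines at 37.9%, 40.9% and 46.8%, with 16.3, 20.5 and 10 neighbour reads at S5 and 8.5 and 12.5 at S3. One on the reverse strand of Ca3, from 11795378 to 11795439, held 5 cytosines at 41.8%, 39.5% and 44.3%, with 10, 11 and 8 neighbour reads at S5 and 8 and 5 at S3. CG cytosines around all 3 stood at 83.3% to 100% in every library.

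The highest single levels were looked for among the 98300 cytosines on the chromosomes with 10 or more reads in every S5 library and at the neighbours in both S3 libraries. The cytosine at 41001261 on the forward strand of Ca6 had 100%, 91.7% and 88.2% in S5 replicates 1 to 3 (11, 12 and 17 reads). Its 3 neighbours listed throughout, all taken as asymmetric, had 89.6%, 94.7% and 92.1% at S5 and 88.9% and 92.9% at S3. The stages thus overlapped around it. No library listed any cytosine of the opposite strand within 50 bp of it, so no CG or CHG partner could be seen. This cytosine and its neighbours may therefore be CG or CHG sites. The cytosine at 22808149 on the reverse strand of Ca5, one of a cluster of 8, had 83.3%, 81.3% and 100% (12, 16 and 10 reads), and its same-strand asymmetric neighbour listed throughout had 100%, 76.9% and 90% at S5 against 50% and 30% at S3. The cytosine at 32946893 on the forward strand of Ca5 had 77.8%, 88.9% and 75% (18, 18 and 16 reads). Its 3 same-strand asymmetric neighbours had 66.7%, 59.96% and 49.1% at S5 and 53.5% and 25.9% at S3, which overlapped. If their own S3 coverage was that of the neighbours, levels of 7.41% to 18.2% could have gone unlisted at these 3 cytosines. At the Ca6 cytosine this bound is weak: the neighbours had 35, 19 and 50.7 reads at S5, more than the cytosine itself in each S5 library, and 11.3 and 27.3 reads at S3.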

How the data were processed

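Whole genome bisulphite libraries of Himchana 1 seeds (S5, n = 3; S3, n = 2) were grouped by the sample labels. The authors filtered reads, aligned them with Bismark 0.14.3 to the kabuli chickpea genome version 1, and called methylcytosines by a binomial test against the non-conversion rate of the chloroplast genome; the labels also name methylKit 0.9.2. The deposited lists give, for every called cytosine, its coverage as a count of reads and its level as the percent of those reads with C. Only called cytosines are listed, with 5 or more reads and 3 or more methylated reads in every library.

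The lists were joined by position and strand in Python 3.11.15 (numpy 2.4.6, pandas 2.3.3). The 750 positions given on more than 1 line of a list were left out. Context was inferred from listed partner cytosines 1 (CG) or 2 (CHG) bases away, since no genome of this version was used, so that an asymmetric cytosine may be a CG or CHG site whose partner was never listed. Sets, rules and clusters were chosen with earlier results of these data known. The named places were the 3 clusters with most cytosines, the 3 highest single cytosines and the 3 clusters nearest the median level, all on Ca1 to Ca8. CG and CHG levels were compared by an exact sign-flip permutation test over libraries. The study's methods describe the replicates as independent biological ones, each a collection of many seeds; the labels do not say more. The joining and selection were tested on simulated data.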

Additional observations from a re-analysis of the deposited data

How the results depend on the processing

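The number of cytosines depended on the rule. It was 229189 with neighbours within 25 bp, 152600 with 5 or more neighbours, 215840 with 10 or more reads at the cytosine in each S5 library, 188123 with neighbours of 10 or more reads, 1374523 when 2 or more S5 libraries sufficed, and 4326 for certain CHH. Leaving out each replicate gave 613844 to 986923, since fewer libraries had to concur. Among alternatives chosen after seeing the data, 22591 remained where every S3 library was covered at least as well as every S5 library, and 134791 with a neighbour within 10 bp of 10 or more reads in both S3 libraries.

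The mean S5 level was 26.1% with 10 or more reads, 23.1% with reads pooled over cytosines, 31.1% to 38.3% without a replicate, and 29.98% and 26.0% under the 2 coverage alternatives added later. The share with another within 50 bp was 29.6% with 10 or more reads, 42.1% to 53.3% without a replicate, 16.1% and 20.1% under those 2 alternatives, and 35.3% with a local coverage of 50 or less in every library. It was 25.4% within 20 bp and 42.3% within 100 bp.

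The same-strand stage difference was 4.64 to 6.80 points without a replicate and 8.44 points where S3 coverage was as high, and the opposite-strand difference was 4.02 points with pooled reads. In these, as in all other alternatives run, asymmetric cytosines were higher at S5 and CHG cytosines lower. The CG stage difference had no stable sign: -0.205 points with pooled reads, -0.126 with the replicate block and -0.151 to 0.321 without a replicate. With the replicate block, the mean of the S5 minus S3 differences of replicates 1 and 2, the same-strand, opposite-strand and CHG differences were 5.39, 4.77 and -2.72 points. The labels do not say that numbers pair samples, and the deviations of same-numbered libraries correlated at 0.00551 and 0.0154. The CG and CHG differences from comparison cytosines stayed negative in all 8 alternatives each, at -0.446 to -0.107 and -1.32 to -0.194 points. Where an alternative's own construction does not show it, the cause was not tested. Coverage limits what an unlisted cytosine says: at the median place, levels of up to 15.4% and 14.3% of the reads could go unlisted at S3. Cytosines methylated in a larger share of the DNA copies may be missed as well.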
